A study of Zea mays with 16 samples.

Results

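The enzymes that cleave sucrose in roots were followed here by 5 maize genes: the invertases ivr2, IVR1 and incw1 and the sucrose synthases sh1 and sus1. Every probe set annotated with one of these names, as gene symbol or RefSeq synonym in any case, was taken. This gave 6 of the 17734 probe sets of the Affymetrix Maize Genome Array. ivr2, incw1 and sus1 had 1 probe set each, sh1 had 3, and no annotated probe set carried IVR1, so 4 of the 5 genes have values, among 974 genes that could be named on the array. The rule used names only and no measured value.

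Sucrose that reaches a root through the phloem must be split before it can be respired. Invertases hydrolyse it to glucose and fructose, in the vacuole (ivr2) or in the cell wall (incw1), whereas sucrose synthases, the enzymes of sh1 (shrunken1) and sus1, react it with UDP and keep the energy of the bond in UDP-glucose. In plant roots short of oxygen, sucrose synthase is known as the route that costs less ATP, and maize sh1 is a classic gene of the anaerobic response.

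Root RNA came from the inbred lines HKI1105, tolerant of waterlogging, and V-372, susceptible to it, grown in soil in pots. Each line was sampled as an unstressed control on day 28 after sowing, at moderate stress on day 32, at severe stress on day 35 and at recovery on day 42. Waterlogging meant sealed pots with 5 cm of standing water, for 7 days. The sources differ on its start, since the protocol puts the sealing on day 29 but the labels count 7 days of waterlogging by day 35, and on whether the pots were drained after those 7 days or on day 42. Each of the 8 groups had 2 arrays, 16 in all, which the labels call biological and the methods technical replicates, so every p-value below measures only the spread between those arrays.

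The control was taken on day 28 alone, so stage and plant age cannot be told apart. All levels are log2 GCRMA values, on which 1 unit is a doubling, and the lowest value that the background correction leaves is 2.01, called the floor. Errors after ± are standard errors of a difference of group means with n = 2 arrays each. Where responses are compared, they are those of the difference between 2 such differences. Each error and p rests on 1 spread per probe set, estimated over all 8 groups, so groups outside a comparison enter it. A probe set is said to have risen, fallen or differed where the limma p, adjusted over all probe sets by the Benjamini-Hochberg method, was under 0.05. In bulk root tissue, fewer cells of a type and less RNA per cell cannot be told apart.

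The HKI1105 control arrays stood apart from the rest. Their 18 RNA spike-in control probe sets had medians of 8.94 and 9.35, against 4.01 to 7.07 on the other arrays, and their 9 hybridisation controls had 10.91 and 11.37, against 8.84 to 10.37. The summed level of 14 probe sets of root marker genes was 12.29 to 12.30 there and 14.42 to 15.62 elsewhere. Outside that group the sum rested largely on tonoplast aquaporins such as ZmTIP2;1 (10.71 to 14.26 over the groups), while nas2 lay at the floor in every group. Between the controls 3 of the 14 root probe sets were higher in HKI1105 and 6 lower, where 54.1% of all probe sets differed. The higher ones included both bright ones of the silicon channel ZmNIP2-1, by 3.35 and 3.21. Of leaf genes, the summed level of 3 photosystem probe sets was 8.13 to 8.35 in HKI1105 control and recovery and 5.27 to 6.17 in the V-372 control, but 12.03 to 14.75 in the other 5 groups. The sum of 9 probe sets of the C4 cycle and Rubisco was 11.58 to 12.33 in the controls and recovery groups of both lines and 14.14 to 16.63 in the stressed groups. By these sums V-372 recovery stood high on the photosystem list but not on this one. Singly, 3 of the 9 rose against control in V-372 at recovery and 3 fell (23.1% and 23.4% of all). Among those that rose was ssu1, the Rubisco small subunit, from 5.12 to 10.93. The part of these differences in the results below was not tested.

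ivr2, the vacuolar invertase, had the widest range of the members, and at severe stress and recovery it was above its control in HKI1105 and below it in V-372. Its levels in HKI1105 were 4.10 and 3.35 in the control, 11.83 and 11.90 at moderate stress, 7.41 and 7.27 at severe stress, and 6.08 and 6.21 at recovery. In V-372 they were 11.23 and 11.09, then 10.72 and 10.83, then 9.09 and 9.03, and last 6.90 and 6.80. The tolerant line thus started near the floor, peaked at moderate stress and then declined, whereas the susceptible line started high and was lowest at recovery, and no control array overlapped an array of a later stage in either line.

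In HKI1105, ivr2 rose by 8.14 ± 0.19 at moderate stress (282-fold, adjusted p = 2.43e-09), by 3.62 under severe stress (5.76e-07) and by 2.42 at recovery (9.49e-06). In V-372 the change was -0.38 at moderate stress (adjusted p = 0.191), ivr2 fell by 2.10 under severe stress (1.67e-05), and at recovery it fell by 4.31 (19.9-fold, 2.07e-07). The call at moderate stress in V-372 depended on the arrays in the fit: adjusted p was 0.00574 without both HKI1105 control arrays. Those arrays had a standard deviation of 0.53, against 0.04 to 0.1 in the other groups. Pooling these understates the error of comparisons with that control and overstates it for the rest. The difference in response, HKI1105 minus V-372, was 8.52 ± 0.28 at moderate stress (adjusted p = 3.1e-08), 5.72 under severe stress (2.33e-07) and 6.73 at recovery (1.38e-07).

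The lines also had unequal starting levels. HKI1105 minus V-372 was -7.43 ± 0.19 in the controls (173-fold lower in HKI1105, adjusted p = 5.49e-09), on the arrays whose spike-in controls stood apart. Set against the control of the other line, the moderate-stress level of HKI1105 was higher by 0.70 (adjusted p = 0.0161), and the changes at its later stages were -3.82 and -5.01. After moderate stress no control array enters the comparison, and ivr2 fell in both lines: the change from moderate to severe stress was -4.52 in HKI1105 (adjusted p = 4.71e-07) and -1.72 in V-372 (7.5e-05), and that from severe stress to recovery was -1.20 (0.00159) and -2.21 (1.25e-05).

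**Figure D1:**
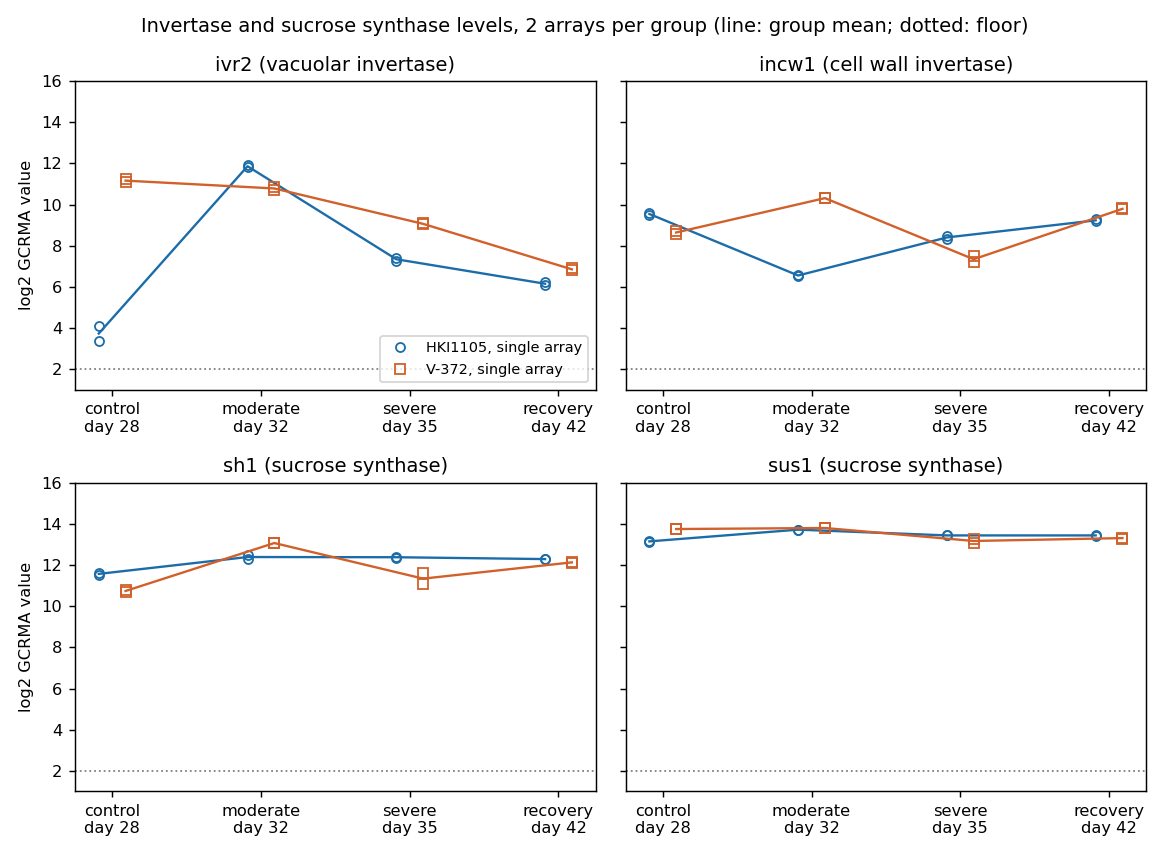
Levels of ivr2, incw1, sh1 (its brightest probe set) and sus1 on the log2 GCRMA scale (y axis) in control, moderate stress, severe stress and recovery (x axis, with the day after sowing). Points are single arrays, lines join the group means of 2 arrays, and the dotted line is the floor at 2.01. ivr2 of HKI1105 climbs from 3.73 to 11.86 between control and moderate stress, and incw1 of the lines crosses at every step.

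incw1, the cell wall invertase, went the opposite way to ivr2 at moderate stress in HKI1105. Its levels in that line were 9.49 and 9.60 in the control, 6.52 and 6.58 at moderate stress, 8.34 and 8.46 at severe stress, and 9.18 and 9.28 at recovery. In V-372 they were 8.73 and 8.55, then 10.31 and 10.30, then 7.19 and 7.48, and last 9.81 and 9.78. The lowest level of the tolerant line and the highest of the susceptible one therefore fell on the same day, and in each line the arrays of control and later stages did not overlap.

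At moderate stress incw1 fell by 2.99 ± 0.10 in HKI1105 (7.96-fold, adjusted p = 1.47e-08) and rose by 1.66 ± 0.10 in V-372 (3.17-fold, 1.77e-06), and the responses differed by -4.66 ± 0.14 (1.74e-08). At severe stress it fell in both lines, with changes of -1.15 in HKI1105 (adjusted p = 9.92e-06) and -1.30 in V-372 (3.48e-06), and the difference of 0.16 ± 0.14 did not pass (0.393). At recovery its change was -0.32 in HKI1105 (adjusted p = 0.0232) and 1.15 in V-372 (1.04e-05), a difference of -1.47 (2.43e-05). The control level was 0.90 higher in HKI1105 (adjusted p = 3.91e-05), and it enters each of these differences in response. The small change in HKI1105 at recovery lost its call without control replicate 2 (adjusted p = 0.121) or recovery replicate 1 (0.129).

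The course after moderate stress was also unlike between the invertases. From moderate to severe stress incw1 rose by 1.85 in HKI1105 (adjusted p = 1.49e-06), where ivr2 fell, and it fell by 2.97 in V-372 (1.88e-08). From severe stress to recovery incw1 rose in both lines (0.83 in HKI1105, 0.000214, and 2.45 in V-372, 6.49e-08), where ivr2 fell in both.

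sh1, the sucrose synthase first known from shrunken kernels, rose at every stage in both lines. On its brightest probe set HKI1105 had 11.54 and 11.61 in the control, 12.50 and 12.27 at moderate stress, 12.35 and 12.41 at severe stress, and 12.27 and 12.31 at recovery. V-372 had 10.69 and 10.79, then 13.06 and 13.08, then 11.06 and 11.63, and last 12.14 and 12.12. HKI1105 thus stepped up once and kept that level, whereas V-372 peaked at moderate stress, dropped and came back, and all stressed and recovered arrays lay above the control arrays of their line.

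In HKI1105 sh1 rose by 0.81 ± 0.15 at moderate stress (1.76-fold, adjusted p = 0.00159), by 0.81 under severe stress (0.00186) and by 0.72 at recovery (0.0039). In V-372 it rose by 2.33 ± 0.15 at moderate stress (5.03-fold, 4.21e-06), by 0.60 under severe stress (0.00948) and by 1.39 at recovery (6.56e-05). The lines started from unequal sh1 controls, with HKI1105 above V-372 by 0.83 (adjusted p = 0.00133). That gap enters each sh1 difference in response given below. Compared directly, HKI1105 minus V-372 was -0.68 under moderate stress (0.00658) and 0.16 once the plants had recovered (0.542). The rise in HKI1105 was the smaller one, with a difference of -1.52 at moderate stress (adjusted p = 0.000358) and of -0.67 at recovery (0.0305). The latter did not pass when any 1 array of the controls or of recovery was left out (adjusted p 0.0524 to 0.0892).

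At severe stress the sh1 responses differed by 0.20 ± 0.22 (adjusted p = 0.507), and this value rested on the unequal V-372 arrays: it was -0.08 without V-372 severe replicate 1 and 0.49 without replicate 2 (0.00738). The rise of sh1 in V-372 at severe stress had an adjusted p of 0.0634 when only the V-372 arrays were fitted and of 0.0564 without V-372 control replicate 1. From moderate to severe stress sh1 fell by 1.73 in V-372 (adjusted p = 1.44e-05), while the change in HKI1105 was -0.01 ± 0.15 (1).

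The other sh1 probe sets were at or near the floor. The dimmest read 2.01 on all 16 arrays. The middle one read 4.95 and 4.29 at moderate stress in V-372 and 2.47 on 1 V-372 recovery array, and lay at the floor on the remaining arrays. Its one clear signal came in the group where the brightest was highest, and it rose there by 2.61 ± 0.20 from the floor (adjusted p = 9.65e-06), which gives no fold. Arrays at the floor show no spread, so this error and p are too small. The counts of members below include this call wherever V-372 at moderate stress enters.

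sus1, the other sucrose synthase, was high everywhere and had the narrowest span of the members above the floor. HKI1105 had 13.16 and 13.14 in the control, 13.71 and 13.72 at moderate stress, 13.44 and 13.44 at severe stress, and 13.47 and 13.40 at recovery. V-372 had 13.74 and 13.75, then 13.80 and 13.80, then 13.09 and 13.25, and last 13.33 and 13.29. HKI1105 lay above its control at each later stage, and V-372 lay below its control at severe stress and recovery, without overlap.

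In HKI1105 sus1 rose by 0.56 ± 0.04 at moderate stress (1.48-fold, adjusted p = 3.67e-06), by 0.29 under severe stress (0.000382) and by 0.29 at recovery (0.000461). In V-372 the change was 0.05 ± 0.04 at moderate stress (0.443), and sus1 fell by 0.58 under severe stress (3.54e-06) and at recovery it fell by 0.44 (2.83e-05). The responses differed by 0.51 at moderate stress (adjusted p = 0.000105), by 0.87 under severe stress (2.41e-06) and by 0.72 at recovery (1.23e-05). Quantile normalization took the small rises of HKI1105 below the threshold under severe stress (0.08, adjusted p = 0.227) and at recovery (0.12, 0.0705).

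As with ivr2, the sus1 difference began in the controls, where HKI1105 minus V-372 was -0.59 ± 0.04 (adjusted p = 2.89e-06). Against the control of the other line, sus1 of HKI1105 changed by -0.03 at moderate stress and by -0.31 at both later stages. The array maxima reached 15.56, and 301 probe sets had a mean of 13 or more, as sus1 did. Whether so bright a probe set reads changes in full was not tested.

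**Figure D2:**
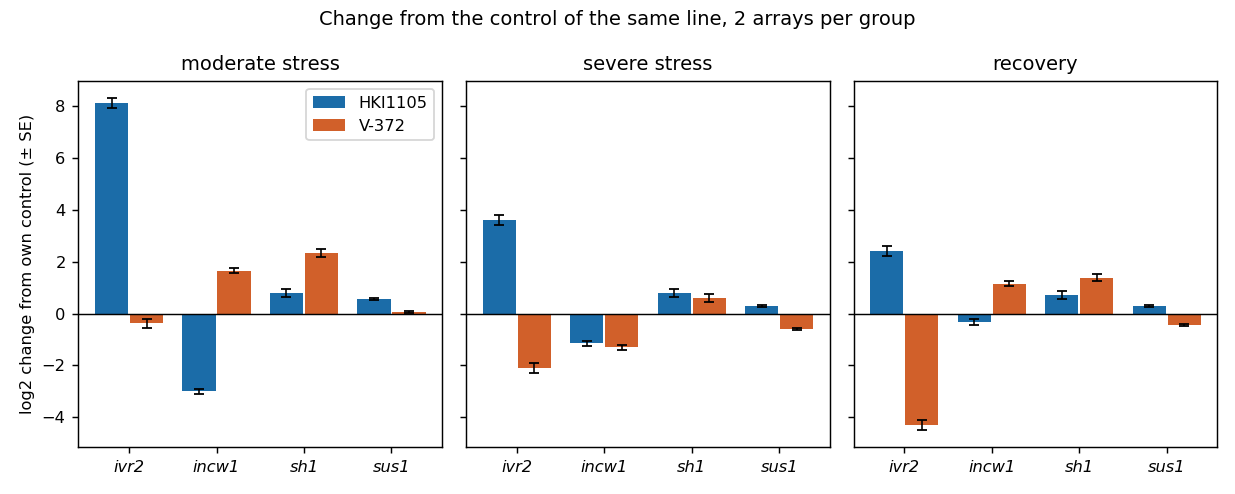
Change of ivr2, incw1, sh1 (its brightest probe set) and sus1 (x axis) from the control of the same line, in log2 units (y axis), at moderate stress, severe stress and recovery. Bars start at 0, bars of HKI1105 and V-372 stand side by side, and whiskers are standard errors with 2 arrays per group. The ivr2 bars run from 8.14 in HKI1105 at moderate stress to -4.31 in V-372 at recovery, while the sus1 bars lie between -0.58 and 0.56.

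The enzyme classes are set side by side here as counts. In HKI1105 at moderate stress, 4 of the 6 probe sets were called, where 54% of all probe sets were (26.5% up, 27.5% down): both invertase probe sets, 1 up and 1 down, and 2 of the 4 sucrose synthase probe sets, both up. In V-372, where ivr2 was not called, 3 of 6 were, all up, against 33% of all probe sets (14% up, 19.1% down): incw1 and the 2 sh1 probe sets above the floor. The responses of the lines differed for 5 of 6, where 48.7% of all probe sets differed.

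At severe stress 4 of 6 were called in HKI1105, 3 up and 1 down (50.2% of all, 27.1% up and 23.2% down), and 4 of 6 in V-372, 1 up and 3 down (49.2%, 17.5% up and 31.7% down). Both invertases fell in V-372, whereas in HKI1105 ivr2 rose and incw1 fell. The sucrose synthases rose in HKI1105, and in V-372 sh1 rose and sus1 fell. The lines' responses differed for ivr2 and sus1 only, 2 of 6 (55% of all).

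At recovery 4 of 6 were called in HKI1105, 3 up and 1 down (48% of all, 26.8% up and 21.2% down). In V-372 4 of 6 were called, 2 up and 2 down (46.5%, 23.1% up and 23.4% down), and 4 of 6 differed in response between the lines (47.9%). In V-372 each class was split then, with incw1 and sh1 up and ivr2 and sus1 down. With probe sets at the floor included, the median change of the 4 sucrose synthase probe sets against the control ran from 0 (V-372 at severe stress) to 1.19 (V-372 at moderate stress), and the median over all probe sets was 0 in each comparison. With only 6 probe sets, nothing particular to the members is read from these shares, and the comparisons within a line share their control arrays.

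Along the stress, 3 of 6 were called from moderate to severe stress in HKI1105 (31.2% of all) and 5 of 6, all down, in V-372 (45.8% in either direction, 28.1% down). From severe stress to recovery, 2 of 6 were called in HKI1105 (30.9%), both invertases, and 4 of 6 in V-372 (49.4%). In HKI1105, sh1 and sus1 changed by -0.09 and 0.00 over that step, with adjusted p of 0.937 and 1. By the stricter rule of the study's methods, p at most 0.001 and at least 5-fold, the members called against their control were ivr2 and incw1 at moderate stress in HKI1105 (10.3% of all), both brighter sh1 probe sets at moderate stress in V-372 (3.16%), ivr2 at severe stress (7.06%) and recovery (5.4%) in HKI1105, and ivr2 at recovery in V-372 (6.6%). None passed it at severe stress in V-372 (8.97% of all), where 4 passed the adjusted test, and 1 of the sh1 probe sets passed it from the floor.

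Between the lines at a given stage, 4 of 6 differed in the controls (54.1% of all), 4 at moderate stress (39.4%), 4 at severe stress (48.7%) and 3 at recovery (39.6%). At moderate stress ivr2 was 1.09 ± 0.19 higher in HKI1105 (adjusted p = 0.00186) and incw1 was 13.5-fold lower there (-3.75 ± 0.10, 1.16e-08), while sus1 differed by -0.08 (0.164). At severe stress the order was turned for both invertases: ivr2 was lower in HKI1105 (-1.72, 6.99e-05) and incw1 1.06 higher (1.56e-05). HKI1105 then also had sh1 higher by 1.04 (0.000394) and sus1 higher by 0.27 (0.000579). At recovery the differences were -0.70 for ivr2 (0.019), -0.57 for incw1 (0.00138), 0.13 for sus1 (0.0411) and 0.16 for sh1 (0.542). The ivr2 call was lost without any 1 of the 4 recovery arrays (adjusted p 0.051 to 0.0984) and the sus1 call in 17 settings, and the count of 3 fell to 1 without HKI1105 recovery replicate 1 or either V-372 recovery array.

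**Figure D3:**
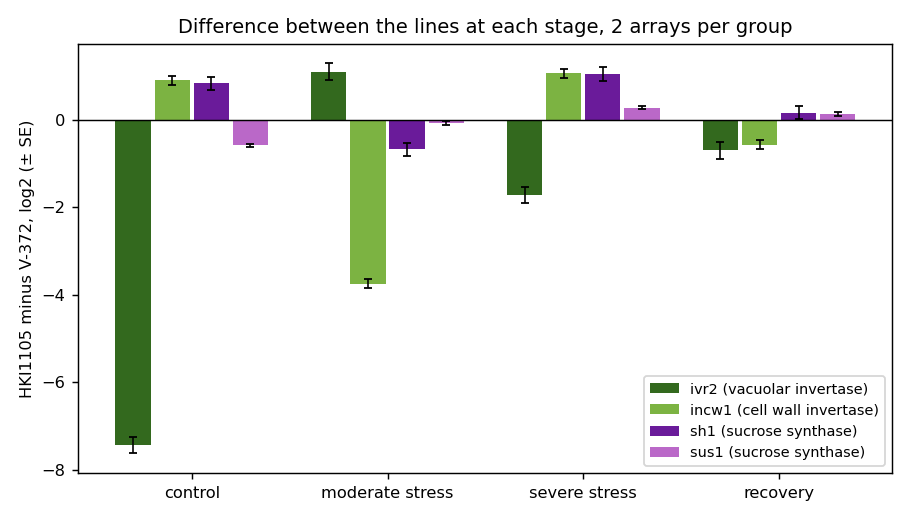
HKI1105 minus V-372 in log2 units (y axis) for ivr2, incw1, sh1 (its brightest probe set) and sus1 at each stage (x axis). Bars start at 0 and whiskers are standard errors with 2 arrays per group. The differences reach -7.43 for ivr2 in the controls and -3.75 for incw1 at moderate stress, and at recovery all 4 lie between -0.70 and 0.16.

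Ordered by group, ivr2 was highest in HKI1105 at moderate stress (11.86), followed by the V-372 control (11.16), V-372 moderate (10.78) and severe stress (9.06), HKI1105 severe stress (7.34), V-372 recovery (6.85), HKI1105 recovery (6.15) and the HKI1105 control (3.73). Neighbours did not pass the test between V-372 control and moderate stress (adjusted p = 0.191) and between HKI1105 severe stress and V-372 recovery (0.0699). incw1 ran from V-372 at moderate stress (10.31) to HKI1105 at moderate stress (6.55). For sh1, the 3 later groups of HKI1105 and V-372 recovery, at 12.13 to 12.39, were neighbours that did not pass (adjusted p 0.542 to 1).

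The lowest group of ivr2 was the HKI1105 control, at 3.73, and its other groups ran from 6.15 to 11.86. With that control, the group means of ivr2 spanned 8.14 log2 units, more than 98% of the 13071 probe sets that rose above the floor. The spans of incw1, sh1 and sus1 were 3.75, 2.33 and 0.65, wider than 81.9%, 64.6% and 8.9% of those probe sets. Among the 301 probe sets with a mean of 13 or more, whose median span was 0.74 against 1.69 for all above the floor, sus1 was wider than 40.9%. Over the 8 group means, ivr2 and sus1 correlated at r = 0.79, across the classes, while the invertases ivr2 and incw1 had r = -0.44 and the sucrose synthases sus1 and sh1 had r = 0.30. These are descriptions over 8 points that share lines, days and scaling, and the HKI1105 control was the lowest group of both ivr2 and sus1.

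Among named probe sets that spanned at least 1 log2 unit, those most like ivr2 over the 8 group means were EXPA5, an expansin that loosens cell walls (r = 0.95), fae2 (0.949) and the beta-tubulin TUBB6 (0.946). They were at 2.90, 3.98 and 7.21 in the HKI1105 control, their lowest group as for ivr2, and r was 0.923, 0.908 and 0.935 without that group. sus1 was most like an1, of gibberellin synthesis (0.943), GRF12 (0.93) and the plasma membrane aquaporin ZmPIP2-3 (0.917). incw1 was most like gst42, a glutathione S-transferase (0.971), aox3, an alternative oxidase (0.934), and the thioredoxin trxh2 (0.919). sh1 was most like ptk1 (0.93), xet1 (0.878) and sat1 (0.852). These r values were picked as the highest among 805 to 807 candidates over 8 points, so their height is in part due to that choice.

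The other sucrose-cleaving genes with annotated probe sets were sus2, mn1 and incw3, with 4 probe sets. Those of mn1 and incw3, cell wall invertases, stayed at or near the floor. sus2, a further sucrose synthase, had group means in HKI1105 of 5.59 in the control, 4.85 at moderate stress, 6.96 at severe stress and 10.50 at recovery, and in V-372 of 5.12, 3.43, 8.79 and 9.16. It fell at moderate stress, unlike sh1, with changes of -0.74 in HKI1105 (adjusted p = 0.00574) and -1.68 in V-372 (8.68e-05), and rose by 4.91 ± 0.18 at recovery in HKI1105 (adjusted p = 6.44e-08) and by 4.04 in V-372 (1.68e-07).

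Of the 4 probe sets for entry of the cleaved sugars into metabolism, 2 rose and 1 fell at moderate stress in each line. Over all probe sets 26.5% rose and 27.5% fell in HKI1105 then, and 14% and 19.1% in V-372, the background for the moderate-stress counts of this list and of those that follow. frk1, a fructokinase that phosphorylates the fructose released by either enzyme class, rose 4.01-fold in HKI1105 (adjusted p = 1.32e-07) and by 1.63 log2 units in V-372 (1.49e-06), and frk2 changed by -0.48 (0.000258) and -0.34 (0.00479). phi1, the phosphohexose isomerase, rose by 2.14 (6.19e-07) in HKI1105 and less, by 1.05 (0.000191), in V-372. At severe stress frk1 was still up by 1.83 in HKI1105 (3.58e-07) but fell by 0.77 in V-372 (8.48e-05), where pfk1 rose by 3.52 (1.35e-06), and the frk1 responses differed by 2.60 (2.81e-07).

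Among the 6 probe sets of sucrose synthesis and sugar transport, HKI1105 had 2 that rose and 3 that fell at moderate stress, and V-372 had 3 and 0. Both probe sets of the monosaccharide transporter mstr1 (mst1), which carries the hexoses that a cell wall invertase releases, fell in HKI1105 under moderate stress, with changes of -3.02 (adjusted p = 4.06e-08) and -2.55 (1.01e-07), and rose in V-372, by 0.66 (0.00188) and 1.01 (0.000121). These were the directions of incw1 at that stage. sps1, sucrose phosphate synthase of sucrose formation, had a mean of 9.07 in V-372 at severe stress, against 2.01 to 6.31 in the other groups, and that was also the group with the highest leaf photosystem level. sut1, a sucrose transporter, rose by 4.06 at recovery in HKI1105 (adjusted p = 1.03e-05) and by 1.98 in V-372 (0.000924). It went from 3.78 to 7.84 in HKI1105 and from 6.49 to 8.47 in V-372.

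Further along the pathway, 13 probe sets of glycolysis held 4 that rose and 2 that fell under moderate stress in HKI1105, against 6 and 1 in V-372. gpc4, a cytosolic glyceraldehyde phosphate dehydrogenase, rose by 3.75 in HKI1105 (adjusted p = 2.06e-08), and its group mean went from 8.41 to 9.66 in V-372. The 9 probe sets of alcoholic fermentation held 4 that rose and 2 that fell in HKI1105, against 6 and 0 in V-372. pdc1, pyruvate decarboxylase at the entry to ethanol formation, went from 3.19 to 10.65 in HKI1105 and from 8.14 to 12.84 in V-372 (the brighter of its 2 probe sets), so on this probe set its HKI1105 control lay below that of V-372. The other pdc1 probe set showed no such gap (HKI1105 minus V-372 of -0.14 in the controls, adjusted p = 0.585), and its change at moderate stress was 0.38 in HKI1105 (0.0787) and 4.59 in V-372. On 2 probe sets of pdc2, V-372 rose then by 6.78 (adjusted p = 7.22e-09) and 4.66 (1.78e-08), where HKI1105 changed by 0.15 (0.537) and -1.96 (1.43e-06). Another pdc2 probe set changed by 0.19 in V-372 (0.677) and -1.53 in HKI1105 (0.000229), and the last stayed at the floor.

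For starch synthesis, 7 of 17 probe sets rose and 0 fell in HKI1105 under moderate stress, against 4 and 1 in V-372. Agpsemzm, a subunit of the ADP-glucose pyrophosphorylase that commits glucose to starch, was at 2.32 in the HKI1105 control and 7.10 at moderate stress, against 6.49 and 5.87 in V-372. The starch synthase ss1 and GLG1, another pyrophosphorylase subunit, were highest in V-372 at severe stress, at 10.67 and 11.84.

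**Figure D4:**
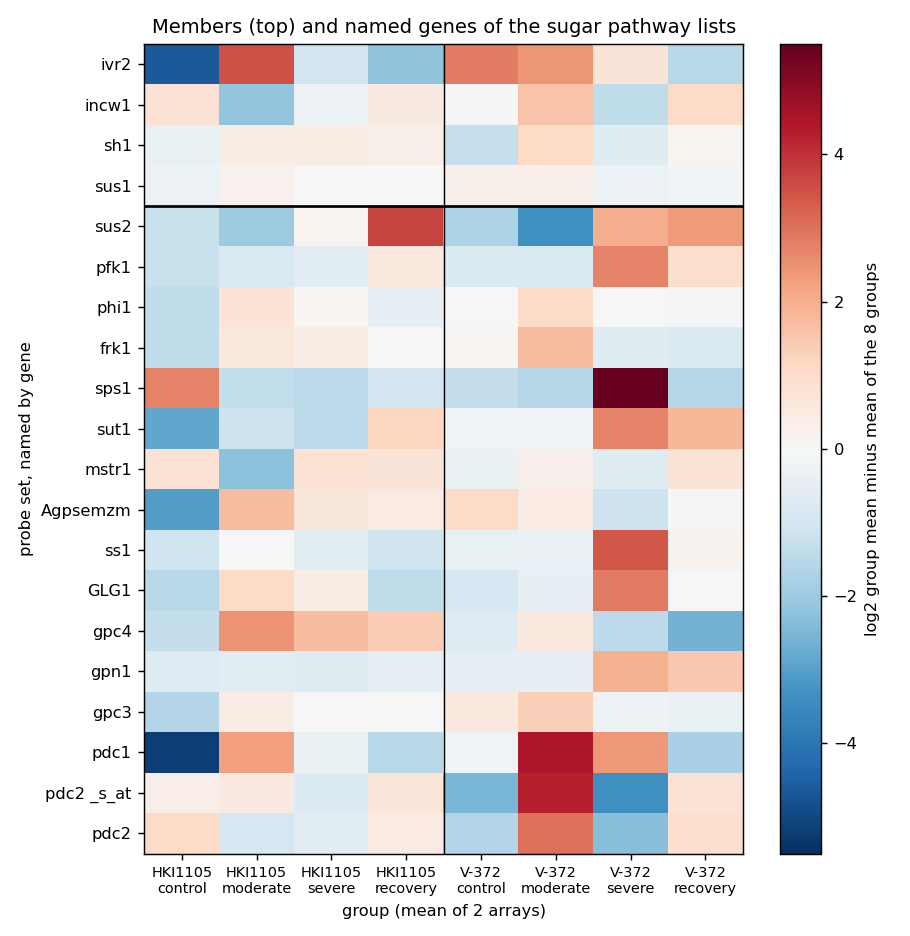
Group mean minus the mean of the 8 groups, in log2 units (colour), for the 4 members above the floor (top rows) and the probe sets named from the sugar pathway lists (y axis) in each group of 2 arrays (x axis). Red is above and blue below the mean of the 8 groups. ivr2, Agpsemzm and pdc1 (its brighter probe set) are deep blue in the HKI1105 control, and sps1, ss1 and pfk1 are red in V-372 at severe stress.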

How the data were processed

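Root RNA of 2 inbred lines at 4 stages was hybridised to 16 arrays. The deposited values are log2 values that the authors made with GCRMA (version not stated), which corrects background, normalises and summarises probes, and they were used without further scaling. Of 1453 annotated probe sets, 1377 matched the RefSeq table (Zm-B73-REFERENCE-NAM-5.0) and 1270 could be named. The members and gene lists were chosen with earlier results of these data known, and 5 list probe sets with names shared by other genes were left out.

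One mean per group was fitted with limma 3.58.1 in R 4.3.3 (8 residual and 0.462 prior degrees of freedom), with interactions for the difference between lines, over all 17734 probe sets, 113 Affymetrix controls included. The 17 comparisons were adjusted one by one. On simulated data with equal spread in all groups, the fit found 181 of 200 changed probe sets, with 12 false calls. Unequal spread between groups and values at the floor were not simulated, so the test does not cover them.

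Named from each list are up to 3 probe sets with the largest change past the threshold against a control, and for each member the 3 named genes of highest r. Alternatives covered scaling, the floor filter, the prior, the samples, the control, the call rule and leaving out arrays. Leaving out both HKI1105 control or both V-372 severe arrays was chosen after seeing the data. The number of arrays limits the precision. Promoter motifs and sequences were not analysed here.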

Additional observations from a re-analysis of the deposited data

Results flagged for a closer look

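The response to waterlogging differed between the lines, by the interaction test, for 11 member changes (HKI1105 minus V-372, log2): 5 of 6 probe sets at moderate stress, 2 at severe stress and 4 at recovery, where 48.7%, 55% and 47.9% of all probe sets differed. For ivr2 the difference was 8.52 at moderate stress, 5.72 at severe stress and 6.73 at recovery. For sus1 it was 0.51, 0.87 and 0.72. For incw1 it was -4.66 at moderate stress and -1.47 at recovery. For sh1 it was -1.52 at moderate stress and -0.67 at recovery on its brightest probe set. On the middle one, at the floor in all HKI1105 groups, it was -2.61 at moderate stress. The ivr2 and sus1 differences had the same sign at all 3 stages. All of these differences share the control arrays of both lines. The controls differed by -7.43 for ivr2, -0.59 for sus1, 0.90 for incw1 and 0.83 for sh1 on its brightest probe set. The spike-in control probe sets of the HKI1105 control arrays were higher than on all other arrays, and their part in these values was not tested.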

How the results depend on the processing

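Of 72 member changes followed, 59 kept their direction and their call under every other scaling, filter, prior, block and set of arrays tried. Of the rest, 11 gained or lost a call and 3 changed direction, and the sh1 response difference at severe stress did both. The stricter rule and the exchanged control are counted apart. Against the control of the other line, ivr2 of V-372 changed by 7.05, 5.33 and 3.12 from moderate stress to recovery, and ivr2 of HKI1105 by -3.82 and -5.01 at the later 2 stages. sus1 changed by -0.03, -0.31 and -0.31 in HKI1105 and by 0.02 (severe stress) and 0.16 (recovery) in V-372, sh1 by -0.23 at severe stress in V-372 and incw1 by 0.59 at recovery in HKI1105. The incw1 changes of HKI1105 at severe stress (-0.24, adjusted p = 0.071) and of V-372 at recovery (0.25, 0.0559) then lost their call. Members called in V-372 were then 5 at moderate and 2 at severe stress.

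By the rule of 0.001 and 5-fold, members called from moderate stress to recovery were 2, 1 and 1 in HKI1105, 2, 0 and 1 in V-372, and 3, 1 and 1 for the difference in response. They were 1, 2, 0 and 0 between the lines from control to recovery, 1 and 0 along the later steps of HKI1105, and 2 and 1 along those of V-372.

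Leaving out 1 array gave 1 to 3 members that differed between the lines at recovery. The sh1 response difference at severe stress then ran from -0.08 to 0.49, the sh1 step from moderate to severe stress in HKI1105 from -0.12 to 0.11, and the sus1 step to recovery in HKI1105 from -0.04 to 0.03. The sus1 difference between the lines at recovery did not pass in 17 settings (adjusted p up to 0.236), and the sus1 rise of V-372 after severe stress did not pass without V-372 recovery replicate 1 (0.127) or V-372 severe replicate 1 (0.113), with the floor filter (0.081), with V-372 arrays alone (0.101) or with quantile normalization (0.187). At moderate stress sus1 differed between the lines without either V-372 severe array (-0.08, adjusted p = 0.0194). Quantile normalization turned the sh1 difference at severe stress to -0.06, and the sus1 step to recovery in HKI1105 was 0.04 with it and 0.01 with centred arrays.

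Replicate numbers did not pair the arrays: over 28 pairs of groups, the correlation of replicate differences ran from -0.20 to 0.24 and passed 0.1 in 4. With the replicate block the members called between the lines at recovery fell to 2 and no other member count changed. Centring arrays on their medians, which also shifts values at the floor, raised the probe sets called over the whole array from 8911 to 13569 at severe stress in HKI1105, from 8507 to 13071 at recovery in HKI1105, from 8499 to 13002 for the difference in response at recovery, and from 6985 to 10696 between the lines at moderate stress. The median change of probe sets above the floor moved most for the difference in response at recovery, from 0.01 to -0.20, and against the HKI1105 control from 0.03 to -0.13 at severe stress. The share of calls that were up went from 49.1%, 53.9% and 55.8% to 30.3%, 30.4% and 31.3% in HKI1105 from moderate stress to recovery. For the difference in response it went from 51.5%, 58.9% and 51.8% to 33.4%, 38.9% and 28.5%. It went from 44.9% to 68.1% between the controls, from 42.5% to 65.6% between the lines at moderate stress, and from 58.3% to 72.8% for V-372 from severe stress to recovery.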
